A study of Mus musculus with 11 samples.

Results

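The trefoil factors and gastrokines are the small secreted proteins that accompany gastric mucus, and the mouse genome carries 3 of each: Tff1, Tff2 and Tff3, and Gkn1, Gkn2 and Gkn3. These 6 genes were taken by symbol from a table of 34866 genes in bulk RNA sequencing of gastric corpus mucosa, and all 6 passed the filter on low counts that left 14889 genes for testing. The 11 mouse samples comprised 2 of wild-type controls and 3 of each engineered genotype (ATP4B-DTR, GIF-DTR, and the combined GIF/ATP4B-DTR), named here by genotype and replicate. DTR is the diphtheria toxin receptor, Atp4b is the proton pump subunit gene of acid-secreting parietal cells, and GIF is intrinsic factor, made in the mouse by enzyme-secreting chief cells. GIF/ATP4B-DTR carries both genotypes. The strain, age and sex of the animals, whether the controls also received toxin, its dose and the time of collection are not given in the sources used here. Nothing in the labels says that samples of a group came from separate animals, so the p-values measure the spread between these samples.

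As background, trefoil factors are compact, disulphide-bonded peptides that are secreted with mucins and are known for their part in mucus structure and in the repair of damaged epithelium. Tff1 is a product of the surface mucous (pit) cells, with the mucin Muc5ac. Tff2 is a product of the mucous neck cells, with the mucin Muc6, and a widely used marker of the metaplastic cells called SPEM (spasmolytic polypeptide-expressing metaplasia), and Tff3 is chiefly an intestinal goblet cell product. Gkn1 and Gkn2 are abundant pit cell products, Gkn2 forms a heterodimer with Tff1, and Gkn3 has been described as a mucous neck cell product in mice.

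Each family sits in a compact cluster (GRCm38/mm10 coordinates, GENCODE M21 gene models). The trefoil genes lie within 39972 bp of chromosome 17, all on the minus strand: Tff3 (ENSMUSG00000024029.4) at chr17:31125306-31129646 with 3 exons, Tff2 (ENSMUSG00000024028.7) at chr17:31141049-31144282 with 4, and Tff1 (ENSMUSG00000024032.6) at chr17:31161395-31165277 with 3. An antisense gene, Gm15318, overlaps Tff1; the libraries were stranded, but whether counting used the strand is not given, so any antisense reads could not be told apart from those of Tff1. The gastrokine genes lie within 43286 bp of chromosome 6 and have 6 exons each: Gkn1 (ENSMUSG00000030050.4) at chr6:87345650-87350942 on the minus strand, Gkn2 (ENSMUSG00000030049.5) at chr6:87373357-87379497 on the plus strand, and Gkn3 (ENSMUSG00000030048.5) at chr6:87383256-87388935 on the minus strand. The longest stretch that transcripts of the same family share exactly is 10 to 14 bases, and the deposited values of all 6 genes were whole numbers in all 11 samples, so no fraction of a shared read was assigned to them.

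The sequences just before the gastrokine genes are shown because Gkn3, the 1 member that was called, lies beside Gkn1 and Gkn2, which were not. RefSeq promoters (GRCm38.p6) were available for 3 of the 6 members; Tff1, Tff2 and Tff3 had none in that table. Each sequence reads 5′ to 3′ on the gene's strand and ends at the base before the GENCODE gene start, and capitals mark the motif found.
Gkn1, chr6:87350943-87351065, minus strand: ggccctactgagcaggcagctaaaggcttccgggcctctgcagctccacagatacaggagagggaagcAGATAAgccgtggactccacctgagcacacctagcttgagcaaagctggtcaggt
Gkn2, chr6:87373215-87373356, plus strand: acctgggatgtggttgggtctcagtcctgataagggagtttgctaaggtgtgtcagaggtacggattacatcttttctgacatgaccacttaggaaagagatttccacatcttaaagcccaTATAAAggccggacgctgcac
Gkn3, chr6:87388936-87389085, minus strand: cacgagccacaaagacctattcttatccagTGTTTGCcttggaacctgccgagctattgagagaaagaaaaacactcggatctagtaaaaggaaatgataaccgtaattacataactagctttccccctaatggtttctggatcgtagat

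The TATA box motif TATAAA, the GATA factor motif AGATAA, the forkhead motifs TGTTTAC and also TGTTTGC, the AP-1 motif TGACTCA and the E-box motif CACGTG, which do not contain one another, were searched on both strands of the 150 bases before the RefSeq start, which lies 27 bases downstream of the end of the printed Gkn1 sequence and 8 bases downstream of that of Gkn2. Each of the 3 promoters held 1 match, and each match was to a different motif. Other forms of these motifs were not searched. TGATAA, which differs from AGATAA by 1 base, stands in the printed Gkn2 and Gkn3 sequences. In Gkn2 TATAAA lay at −29 to −24, a motif found in 8.08% of the 27025 promoters in the table. AGATAA in Gkn1 lay at −82 to −77 (5.76% of promoters) and TGTTTGC in Gkn3 at −120 to −114 (2.45%). These matches describe the letters only. No match in these windows was found for TGTTTAC (1.74% of all promoters), for TGACTCA (2.80%) or for CACGTG (4.30%).

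Sample totals ranged from 20.7 to 27.9 M counts. Known parietal markers (Atp4a, Atp4b, Slc26a7, Kcne2, Hamp2) summed to between 15822 and 16869 CPM (counts per mega-count, with trimmed-mean, or TMM, scaling between samples) in the controls, 2929 to 4219 across ATP4B-DTR samples, 7129 to 9321 across GIF-DTR samples and 922 to 2323 across GIF/ATP4B-DTR samples, lowest in the lines named for the parietal cell. The chief cell markers Gif, Pgc, Pga5, Chia1 and Lipf (0 counts) summed to 85885 and 192447 CPM in the controls, and the sum was at most 61995 in ATP4B-DTR, 22614 in GIF-DTR samples and 12421 in GIF/ATP4B-DTR. Squamous forestomach keratin Krt5 had 0 counts in all samples. Y-linked genes were expressed in both controls, in 1 of 3 ATP4B-DTR, 0 of 3 GIF-DTR and 3 of 3 GIF/ATP4B-DTR samples, so Y-linked expression and genotype cannot be told apart for GIF-DTR. In bulk mucosa, fewer cells of a type and less RNA per cell cannot be told apart.

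Together the 6 genes made up a large part of the mucosal transcriptome in every genotype. They held 6.03% and 8.66% of all counts in the controls, 4.42 to 8.53% across ATP4B-DTR samples, 7.10 to 9.24% across GIF-DTR samples and 8.27 to 9.52% across GIF/ATP4B-DTR samples. Counting error on the share of any member was at most 0.0149 percentage points (width of the 95% Wilson interval) and covers counting only. Most of the counts of the 6 genes came from Gkn1, Gkn2 and Tff1. Gkn2 was the most abundant gene of the whole library in 4 of the 11 samples, ranked 2nd or 3rd in 5 more, 5th in ATP4B-DTR replicate 1 and 6th in control replicate 2.

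Per kilobase of exon, which allows genes to be compared, the control level fell in the order Gkn2, Tff1, Gkn1, Tff2, Gkn3 and Tff3. The control means were 40594 ± 12208 CPM per kb for Gkn2 (SD, n = 2), 30556 ± 9921 for Tff1 and 27850 ± 8431 for Gkn1. The ranges of these 3 over the controls overlapped, but within each control the order was the same. Gkn2, Tff1 and Gkn1 stood at 49226, 37571 and 33812 CPM per kb in control 1. They stood at 31961, 23541 and 21889 in control 2. This order was not tested. Tff2 followed at 1593 ± 502 CPM per kb, Gkn3 at 22.2 ± 14.3 and Tff3 at 1.48 ± 0.291, each apart from its neighbours by more than the spread. Neighbouring genes of 1 cluster thus stood at very different levels.

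**Figure D1:**
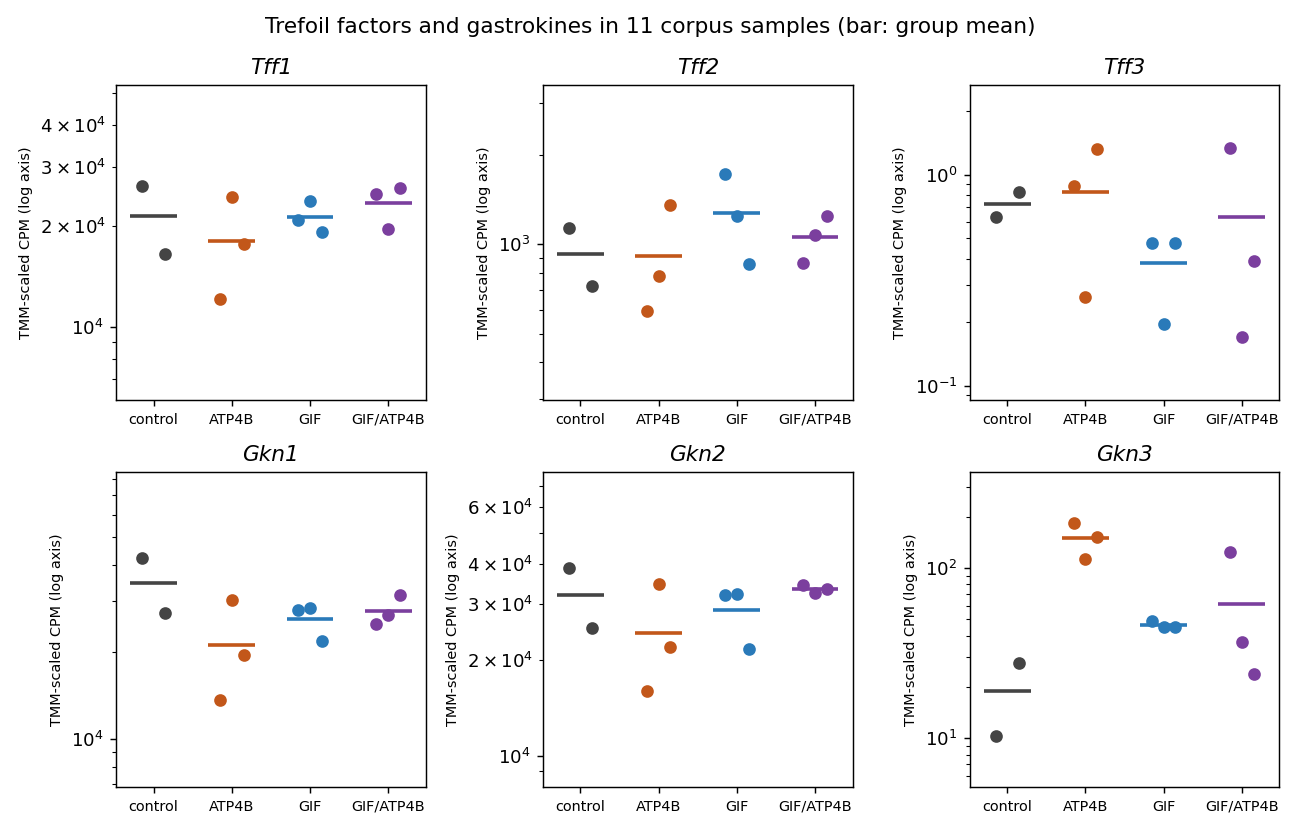
Level of each of the 6 genes (TMM-scaled CPM, log axis with its own range in each panel) in the 11 samples, by genotype (ATP4B, GIF and GIF/ATP4B stand for the DTR lines); points are samples and bars are group means. In Gkn3 all 3 ATP4B-DTR samples (113 to 183 CPM) lie above both controls (10.3 and 27.6 CPM), whereas in Tff1, Tff2, Gkn1 and Gkn2 every line overlaps the controls.

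The pit cell products Tff1, Gkn1 and Gkn2 were not called in any line. Tff1 measured 26412 CPM in control 1 and 16549 in control 2. ATP4B-DTR samples had 12083, 24362 and 17658 CPM, GIF-DTR samples had 20824, 23820 and 19197, and GIF/ATP4B-DTR samples had 24948, 19574 and 25949. The lowest sample was ATP4B-DTR replicate 1, and the other 8 line samples lay between the controls. Relative to control, the log2 difference of Tff1 (± SE) was −0.25 ± 0.33 for ATP4B-DTR, −0.01 ± 0.33 for GIF-DTR and 0.13 ± 0.33 for GIF/ATP4B-DTR (edgeR Benjamini-Hochberg adjusted p = 0.617, 0.983 and 0.783). The 95% interval for GIF/ATP4B-DTR ran from −0.60 to 0.85.

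Control samples had 42265 and 27361 CPM of Gkn1, ATP4B-DTR samples 13636, 30327 and 19510, GIF-DTR samples 28061, 28370 and 21814, and GIF/ATP4B-DTR samples 25093, 26828 and 31589. No line sample exceeded control 1, and 5 of the 9 lay below both controls. Its log2 difference from control was −0.72 ± 0.35 for ATP4B-DTR (edgeR adjusted p = 0.166), −0.42 ± 0.35 for GIF-DTR (0.46) and −0.32 ± 0.35 for GIF/ATP4B-DTR (0.496). The ATP4B-DTR value passed the threshold of 0.05, among the alternatives run, only when ATP4B-DTR replicate 2 was left out (−1.07, edgeR adjusted p = 0.0499).

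Gkn2, the partner of Tff1, had 38790 and 25185 CPM in control samples and 16054, 34563 and 22026 CPM in ATP4B-DTR samples. GIF-DTR samples had 31863, 32261 and 21643 CPM, and GIF/ATP4B-DTR samples 34428, 32386 and 33241. The GIF/ATP4B-DTR samples were tightly grouped (coefficient of variation 3.07%, against 30.1% in control), and all 3 lay between the controls. Against control Gkn2 differed by −0.40 ± 0.35, −0.16 ± 0.35 and 0.06 ± 0.35 log2 units in the same order of lines (edgeR adjusted p = 0.448, 0.802 and 0.906).

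The neck cell product Tff2 was not called in any line although it names the SPEM lineage. Control samples had 1138 and 723 CPM of Tff2, ATP4B-DTR samples 597, 780 and 1361, GIF-DTR samples 1723, 1246 and 860, and GIF/ATP4B-DTR samples 863, 1072 and 1250. Samples above and below the controls occurred in ATP4B-DTR, and 4 of the 9 line samples exceeded both controls. The log2 differences were −0.03 ± 0.37, 0.46 ± 0.38 and 0.19 ± 0.37, with edgeR adjusted p of 0.967, 0.455 and 0.717. The widest upper limit, in GIF-DTR, was 2.43-fold.

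Tff3, the goblet cell factor, was close to the detection floor. Control samples had 0.63 and 0.83 CPM of Tff3, ATP4B-DTR samples 0.88, 0.26 and 1.33, GIF-DTR samples 0.47, 0.20 and 0.48, and GIF/ATP4B-DTR samples 1.33, 0.17 and 0.39. These values rest on 4 to 33 counts a sample, where 3 counts correspond to between 0.107 and 0.166 CPM. All 3 GIF-DTR samples lay below both controls, but the difference of −0.93 ± 0.87 log2 units was not past the threshold (edgeR adjusted p = 0.516). The intervals in ATP4B-DTR (0.309- to 4.16-fold) and GIF/ATP4B-DTR (0.237- to 3.18-fold) were wide.

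Gkn3 was the 1 member that rose. Its level was 10.3 CPM in control 1 and 27.6 in control 2, a larger factor than between the controls for any other member. ATP4B-DTR samples had 183, 113 and 151 CPM, GIF-DTR samples 48.6, 45.1 and 45.2, and GIF/ATP4B-DTR samples 124, 36.6 and 23.8. All 3 ATP4B-DTR and all 3 GIF-DTR samples lay above both controls, while GIF/ATP4B-DTR replicate 3 lay between the controls. By group mean the order was ATP4B-DTR (149 ± 35.5 CPM, SD, n = 3), GIF/ATP4B-DTR (61.4 ± 54.4, n = 3), GIF-DTR (46.3 ± 2.02, n = 3) and control (19 ± 12.2, n = 2).

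In ATP4B-DTR the rise in Gkn3 was 7.88-fold (95% interval 2.43 to 25.6), or 2.98 ± 0.74 log2 units (edgeR adjusted p = 0.0234), higher in 3 of 3 samples. This was 1 of the 6 genes called, where 21.6% of all genes tested were called in that comparison, 12.2% higher and 9.39% lower. Without control replicate 1 the rise was 5.40-fold (edgeR adjusted p = 0.105), without control replicate 2 it was 14.4-fold (0.0529) and without ATP4B-DTR replicate 1 it was 6.87-fold (0.0566), so that the call, but not the direction, rested on each of these samples. With no filter on low counts the call was lost too (edgeR adjusted p = 0.0541). DESeq2 gave an adjusted p of 0.000434, and the range of adjusted p over all alternatives was 0.000434 to 0.105.

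In the other lines Gkn3 did not pass. The log2 difference from control was 1.29 ± 0.69 for GIF-DTR (edgeR adjusted p = 0.244) and 1.70 ± 0.70 for GIF/ATP4B-DTR (0.0954). In GIF-DTR 0 of the 6 genes were called, against 16.8% of all genes (9.97% higher and 6.82% lower), and 0 had an unadjusted p under 0.05, against 4668 of 14889 genes. In GIF/ATP4B-DTR 0 were called, against 33.6% of all genes (18.2% higher and 15.4% lower), and 1 (Gkn3) had an unadjusted p under 0.05, against 6622 of 14889; DESeq2 also called 0 in each. Leaving out GIF/ATP4B-DTR replicate 3 raised the Gkn3 difference to 2.09 log2 units (edgeR adjusted p = 0.0345), and leaving out replicate 1, the sample at 124 CPM, gave the lowest value, 0.68.

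**Figure D2:**
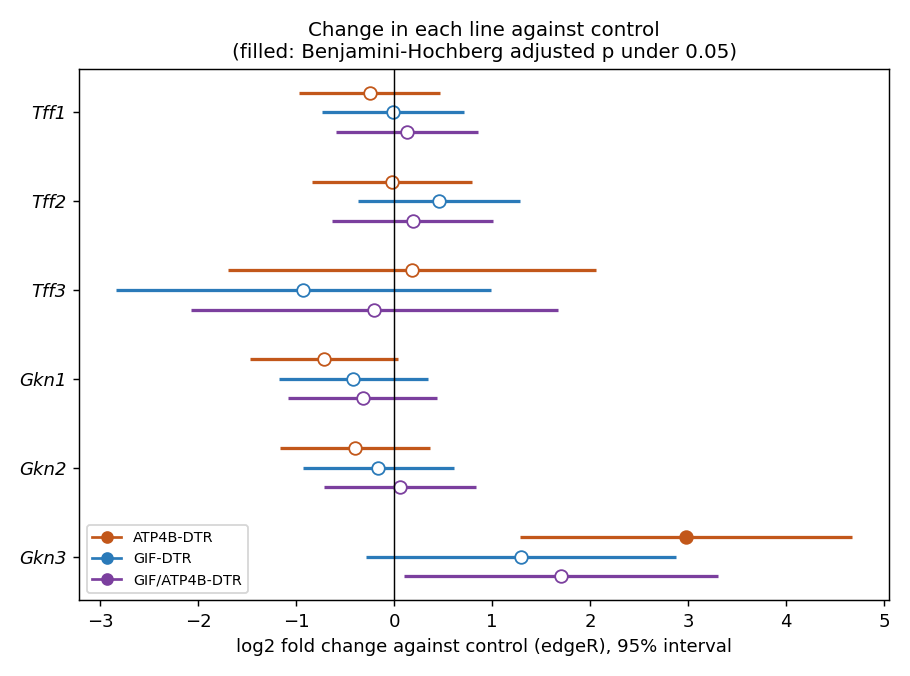
Log2 fold change of each gene in each line against the 2 controls (edgeR; points with 95% intervals; filled where the adjusted p is under 0.05). The sole filled point is Gkn3 in ATP4B-DTR at 2.98; the intervals of Tff1, Tff2, Tff3, Gkn1 and Gkn2 all include 0.

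Direct tests between the lines gave no call for any of the 6. The log2 difference of Gkn3 between GIF-DTR and ATP4B-DTR was −1.69 ± 0.60 (edgeR adjusted p = 0.379); 0.49% of all genes were called in that comparison. In a fit of these 2 groups alone the difference was −1.68 (edgeR adjusted p = 0.00595), and it was −1.53 (0.0152) when samples with Y-linked expression were set aside. GIF/ATP4B-DTR differed from ATP4B-DTR by −1.28 ± 0.59 (0.496), where edgeR called 0% of all genes though 1554 of 14889 had an unadjusted p under 0.05, and from GIF-DTR by 0.41 ± 0.59 (0.735), where 2.53% of genes were called. The order of Gkn3 levels between adjacent genotypes was therefore not resolved beyond the spread. The interaction term, by which the GIF-DTR difference is compared on the ATP4B-DTR and on the wild-type background, was −2.57 ± 0.91 log2 units for Gkn3 (edgeR adjusted p = 0.229, unadjusted 0.0211), with 0.651% of genes called.

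Pooling the 9 line samples against the 2 controls gave a Gkn3 rise of 1.99 ± 0.66 log2 units, or 3.97-fold (edgeR adjusted p = 0.048), higher than both controls in 8 of 9 samples. The other 5 genes did not pass, and 31.7% of all genes were called. The test of any difference among the 4 genotypes fell just short for Gkn3 (edgeR adjusted p = 0.0505), with 23.6% of genes called. The pooled call was lost when any of 9 samples was left out in turn (edgeR adjusted p up to 0.224, without control replicate 1; 2.72-fold), and held without GIF/ATP4B-DTR replicate 1 or replicate 3. It was also lost with a Y-linked covariate (edgeR adjusted p = 0.0846) and with no filter on low counts (0.102). The covariate rested mainly on ATP4B-DTR replicate 1, the 1 sample of its group with Y-linked expression. Without control replicate 2 the pooled rise was 7.25-fold (edgeR adjusted p = 0.0712).

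Markers of other regions and cell types were higher in some of the samples with high Gkn3. The 3 antral genes Gast, Pdx1 and Nkx6-3 summed to between 0.388 and 0.763 CPM in the controls, 1.05 to 22.8 across ATP4B-DTR samples, 1.67 to 18.9 across GIF-DTR samples and 2.05 to 13.4 across GIF/ATP4B-DTR samples, and 1 of the 3, Pdx1, was called higher against control in GIF-DTR (4.45 ± 1.31 on the log2 scale, edgeR adjusted p = 0.0434) and GIF/ATP4B-DTR (4.33 ± 1.30, 0.0274). In ATP4B-DTR, where Gkn3 was called, the Pdx1 difference was 4.01 ± 1.29 and just missed the threshold (edgeR adjusted p = 0.0513). ATP4B-DTR replicate 1, with the highest Gkn3, had an antral sum of 1.82 CPM, and ATP4B-DTR replicate 3 had 22.8 CPM. The squamous keratin Krt13 averaged 0.610 ± 0.471 CPM in control (n = 2) and 11.9 ± 9.13 in ATP4B-DTR (n = 3), a rise of 4.24 ± 1.00 log2 units (edgeR adjusted p = 0.0142), while Krt5 stayed at 0 counts. Of 6 pancreatic acinar genes 3 were tested and 1, the elastase gene Cela1, was called higher in ATP4B-DTR (0.94 ± 0.30 log2 units, edgeR adjusted p = 0.0492). Cel was at −1.17 ± 0.50 there (0.124) and was called lower in GIF/ATP4B-DTR (−1.74 ± 0.51, edgeR adjusted p = 0.0232), and Pnlip was not called. The list summed to 37.4 to 72.7 CPM in ATP4B-DTR and to 40.1 and 48.5 CPM in the controls, and ATP4B-DTR replicate 1 had the lowest of these sums. Of 6 duodenal genes 5 were tested. Their list summed to 1571 and 1900 CPM in the controls and 106 to 147 in ATP4B-DTR. It was 882 to 1992 in GIF-DTR and 99.7 to 133 in GIF/ATP4B-DTR. Apoa1 (−4.32 ± 0.35 log2 units in ATP4B-DTR, edgeR adjusted p = 7.37e-05) and Apoa4 (−2.28 ± 0.24, 0.0003) were called lower in ATP4B-DTR and GIF/ATP4B-DTR. Fabp2 was called higher in GIF-DTR and GIF/ATP4B-DTR. The proliferation genes Mki67, Top2a, Ccnb1 and Pcna were called higher in each line (4 of 4), with sums of 176 and 246 CPM in the controls and 379 to 616 in the 9 line samples. The controls themselves stood apart in smooth muscle genes (247 CPM in control 1 and 1533 in control 2) and endothelial genes (3.55 and 37.8 CPM), of which 0 of 4 and 0 of 2 were called in any line. The part of these regions and cell types in the Gkn3 rise was not tested.

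Ratios of counts within a sample were read next, since they do not depend on the scaling between samples. The 6 tested were Tff2/Muc6 and Tff1/Muc5ac (a trefoil factor over the mucin of its cell type), Gkn2/Gkn1 and Gkn3/Gkn1, and Tff2/Tff1 and Tff3/Tff1. Because they are not scaled by length they compare samples, not genes. The p-values below are from an exact permutation test of the between-group sum of squares, which has no side, over 92400 assignments of the 11 samples to the 4 groups, and are adjusted over the 6 ratios.

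The ratio of Tff2 to Muc6, the mucin of the same neck cells, separated every genotype. Control samples had ratios of 2.97 and 2.17, ATP4B-DTR samples 21.3, 8.61 and 17.7, GIF-DTR samples 43.7, 63.1 and 31.7, and GIF/ATP4B-DTR samples 154, 122 and 82.0. No pair of groups overlapped, and all 9 line samples lay above both controls (exact permutation adjusted p = 0.00039; the unadjusted 6.49e-05 is the smallest this design allows). The mean log2 ratio exceeded that of control by 2.54 for ATP4B-DTR, 4.13 for GIF-DTR and 5.51 for GIF/ATP4B-DTR. It came with a fall of Muc6 and no call for Tff2. Control samples had 333 and 384 CPM of Muc6, ATP4B-DTR samples 27.98 to 90.6, GIF-DTR samples 19.7 to 39.4 and GIF/ATP4B-DTR samples 5.57 to 15.2, log2 changes of −2.46 ± 0.52, −3.64 ± 0.53 and −5.18 ± 0.57 (edgeR adjusted p = 0.0102, 0.00352 and 0.000266). The ratio passed the threshold in every fit that left out 1 sample.

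A like shift was measured on the pit cell side. Tff1 to Muc5ac was 1.91 and 2.12 in the controls, 7.44, 4.62 and 3.11 in ATP4B-DTR, 5.37, 3.51 and 4.13 in GIF-DTR samples, and 9.95, 6.91 and 6.39 in GIF/ATP4B-DTR, above both controls in 9 of 9 line samples (exact permutation adjusted p = 0.0319). Geometric means were 2.01, 4.74, 4.27 and 7.60. Muc5ac averaged 10827 ± 4256 CPM in control (n = 2) and 3134 ± 818 in GIF/ATP4B-DTR (n = 3), a log2 change of −1.79 ± 0.47 (edgeR adjusted p = 0.0142), and its log2 difference was −1.37 ± 0.47 for ATP4B-DTR (0.0613) and −1.09 ± 0.47 for GIF-DTR (0.143). The call on the ratio was lost without control replicate 1 (exact permutation adjusted p = 0.151), control replicate 2 (0.0714), ATP4B-DTR replicate 2 (0.0546), GIF-DTR replicate 2 or 3 (0.0614 and 0.0731) or GIF/ATP4B-DTR replicate 1 or 2 (0.0663 and 0.069).

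Among the gastrokines, Gkn2 relative to Gkn1 was nearly identical in the controls (0.918 and 0.920) and higher in all 9 line samples, at 1.18, 1.14 and 1.13 in ATP4B-DTR, 1.14, 1.14 and 0.992 in GIF-DTR samples, and 1.37, 1.21 and 1.05 in GIF/ATP4B-DTR. The difference was small and did not pass over the 6 ratios (exact permutation adjusted p = 0.0589, unadjusted 0.0393), except without GIF/ATP4B-DTR replicate 3 (adjusted p = 0.0129). Gkn3 to Gkn1 was 0.000245 and 0.00101 in the controls, 0.0135, 0.00371 and 0.00772 in ATP4B-DTR, 0.00173, 0.00159 and 0.00207 in GIF-DTR samples, and 0.00493, 0.00137 and 0.000754 in GIF/ATP4B-DTR, above both controls in 8 of 9 (exact permutation adjusted p = 0.0399). That call was lost without control replicate 1 (adjusted p = 0.151), any ATP4B-DTR sample (0.0546 to 0.112), any GIF-DTR sample (0.0731 to 0.0881) or GIF/ATP4B-DTR replicate 2 (0.0771), by the same exact permutation test. Tff2 to Tff1 (adjusted p = 0.752) and Tff3 to Tff1 (0.689) did not pass by the exact permutation test.

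**Figure D3:**
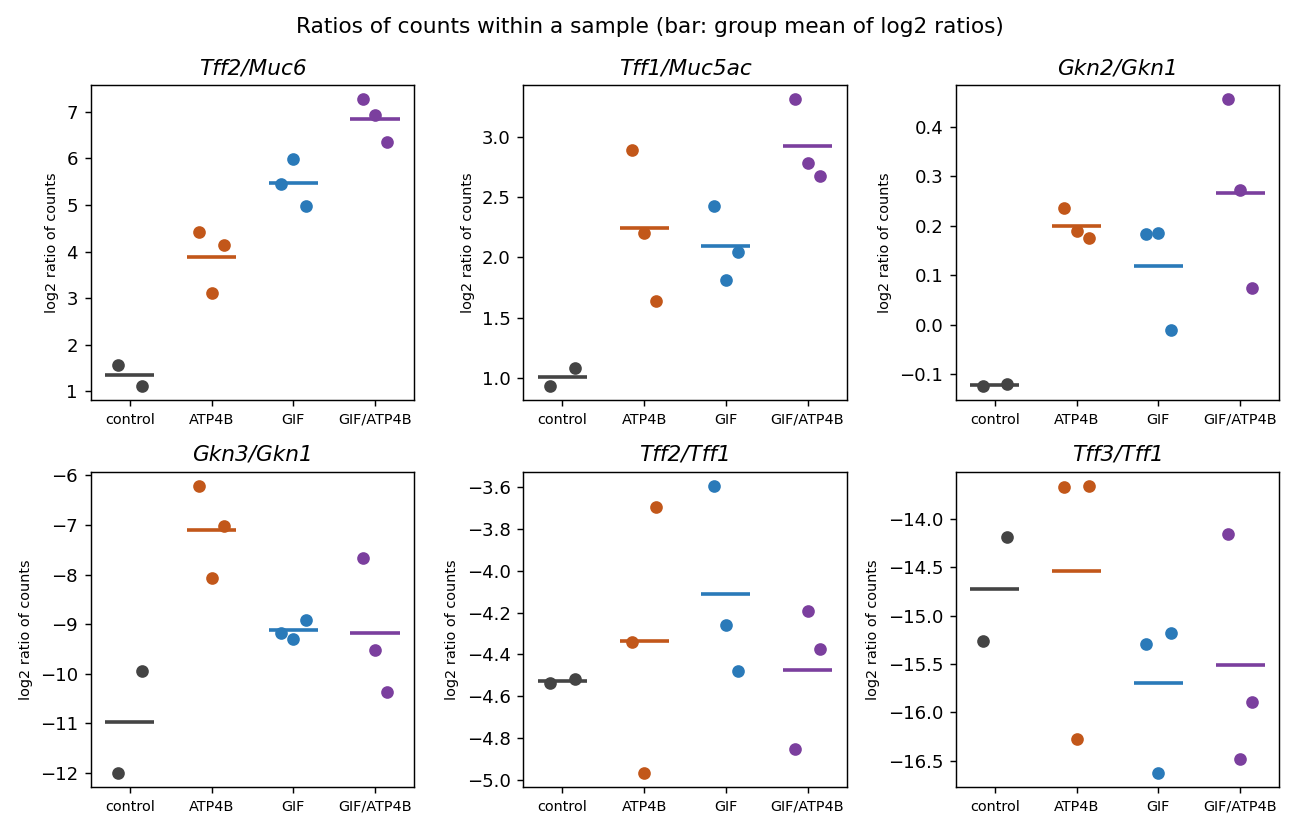
Log2 ratio of counts within each of the 11 samples for 6 pairs of genes, by genotype (ATP4B, GIF and GIF/ATP4B stand for the DTR lines); points are samples, bars are group means of the log2 ratios, and each panel has its own axis range. Tff2/Muc6 rises stepwise with no overlap between the 4 groups, from a mean of 1.34 in control to 6.85 in GIF/ATP4B-DTR, whereas in Tff3/Tff1 every line overlaps the controls.

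Across the 11 samples the pit cell products varied together. Of the 15 pairs of members, 4 passed for both Pearson's r and Spearman's rho of log2 CPM (permutation tests, adjusted over 15 pairs). The matching share among other gene pairs was not computed, and genes outside the families reached like values (Plekhf2 with Tff1, r = 0.942). Tff1 and its partner Gkn2 had r = 0.917 and rho = 0.900 (permutation adjusted p = 0.00172 and 0.0045), and r = 0.790 without ATP4B-DTR replicate 1 and control replicate 1, the samples farthest from the median (exact permutation p = 0.0123). Gkn1 and Gkn2 had r = 0.911 and rho = 0.782 (permutation adjusted p = 0.00172 and 0.0327), and r = 0.801 without the same samples (exact permutation p = 0.0136). After group means were subtracted, r was 0.904 and 0.951 for these pairs over all 11 samples; among the 3 GIF/ATP4B-DTR samples the lowest Gkn1 came with the highest Gkn2.

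Both other pairs rested on the samples at the ends of the range. Tff1 and Gkn1 had r = 0.848 and rho = 0.791 (permutation adjusted p = 0.00735 and 0.0327), but r = 0.588 without the same 2 samples (exact permutation p = 0.0988), and r = 0.922 after group means were subtracted. Gkn1 and Gkn3 ran in opposite directions, with r = −0.777 and rho = −0.736 (permutation adjusted p = 0.0163 and 0.0474); without those samples r was −0.494 (exact permutation p = 0.174), and after group means were subtracted it was −0.579. With shares of total counts in place of CPM, r for Gkn1 and Gkn3 was −0.672 (permutation adjusted p = 0.0841). Tff2 and Tff3 were not in any pair that passed. Within 1 sample all 6 values share the library and its depth.

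**Figure D4:**
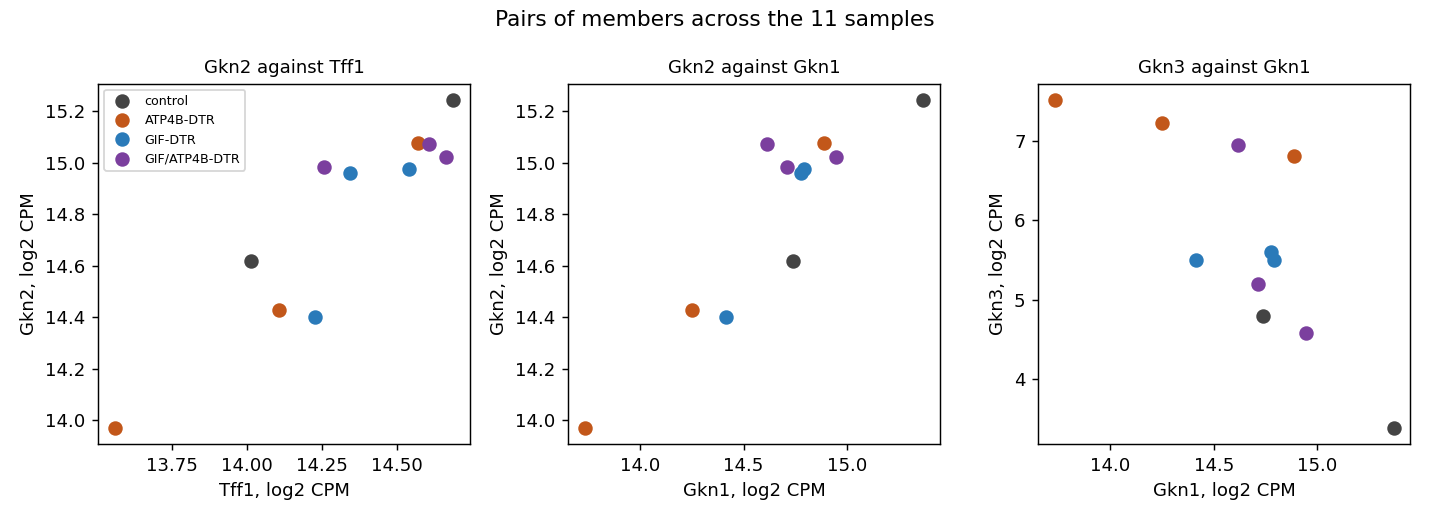
Log2 CPM of Gkn2 against Tff1, Gkn2 against Gkn1 and Gkn3 against Gkn1 in the 11 samples, coloured by genotype. The first 2 panels rise (r = 0.917 and 0.911) and the last falls (r = −0.777), with ATP4B-DTR replicate 1 and control replicate 1 at the ends.

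Gene lists of the same cell types and pathway were read with the same fit, beside the percentages of all genes given above and medians over all genes of −0.015, −0.0083 and −0.038 log2 units for ATP4B-DTR, then GIF-DTR, then GIF/ATP4B-DTR. Of 8 other pit cell genes, 0 were called in ATP4B-DTR or GIF-DTR. In GIF/ATP4B-DTR 1 rose, Anxa10 (0.93 ± 0.27 log2 units, edgeR adjusted p = 0.0209), and 1 fell, Muc5ac. The list's median was −0.21, −0.17 and −0.30 log2 units in the 3 lines. Scaled by total counts instead of TMM the medians were above 0, at 0.11, 0.20 and 0.028, and 1 gene was called higher in ATP4B-DTR and 1 in GIF-DTR; with DESeq2 size factors 1 was called lower in ATP4B-DTR. Most genes of the list, like Tff1, Gkn1 and Gkn2, were not called, but neither were most of the genes tested. In the 3 lines 21.6%, 16.8% and 33.6% of all genes were called.

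Of 10 other neck cell and SPEM genes, 6, 7 and 7 rose in the 3 lines and 1, Muc6, fell in each, with medians of 1.86, 1.59 and 2.00 log2 units (total counts: 7 higher and 1 lower in each line). In GIF/ATP4B-DTR the chloride channel gene Cftr rose by 6.53 ± 0.51, the water channel gene Aqp5 by 3.18 ± 0.35 and the secreted scavenger receptor gene Dmbt1 by 3.13 ± 0.41 log2 units (edgeR adjusted p = 2.17e-05, 0.000134 and 0.000374). Tff2, which is used as a marker of the same cells, was at 0.19 in that comparison, below Cftr, Aqp5 and Dmbt1 and above Muc6. A4gnt, the enzyme that adds the terminal sugar of Muc6 glycans, was not called in any line (−0.90 ± 0.40 in GIF/ATP4B-DTR, adjusted p = 0.113).

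Goblet cell genes, the usual company of Tff3, gave 1 call among 5 tested of 9 listed. Clca1, a secreted metalloprotease of goblet cell mucus, averaged 85.6 ± 58.7 CPM in control (n = 2) and 1928 ± 1444 in ATP4B-DTR (n = 3), a rise of 4.49 ± 1.08 log2 units (edgeR adjusted p = 0.0201). The intestinal mucin Muc2 was at most 0.943 CPM in any sample, Atoh1, the goblet lineage factor, had 0 counts, and Cdx2 had at most 5. The list's sum was 82.7 and 177 CPM in the controls, 678 to 3571 across ATP4B-DTR samples, 56.7 to 197 across GIF-DTR samples and 201 to 478 across GIF/ATP4B-DTR samples, while Tff3 was not called. Most of that sum in ATP4B-DTR was Clca1 itself (540 to 3423 CPM), followed by Spink4 with a mean of 85.4 CPM.

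Of the proposed partners and receptors of trefoil factors (8 listed, 7 tested), Dmbt1 rose and Muc6 fell in all 3 lines and Muc5ac fell in GIF/ATP4B-DTR. The chemokine receptors Cxcr4 and Ackr3 and the receptor Egfr were not called; Lingo2, a proposed Tff3 receptor, had at most 1 count. Of 8 genes for making and folding mucus proteins, 7 were tested. Galnt6, which starts O-glycan chains, changed by −1.35 ± 0.32 log2 units in ATP4B-DTR (edgeR adjusted p = 0.0153) and −1.60 ± 0.33 in GIF/ATP4B-DTR (0.00397). Creb3l1, a factor of secretory capacity, changed by −1.04 ± 0.25 (GIF-DTR, 0.0181) and −1.26 ± 0.25 (GIF/ATP4B-DTR, 0.00285), and Creb3l4 by −1.73 ± 0.36 in GIF/ATP4B-DTR (0.00474). These were the calls of the list; scaled by total counts 1 gene came to be called higher in ATP4B-DTR, where the median was 0.14 in place of −0.16, and 1 came to be called higher in the GIF/ATP4B-DTR line.

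Among 8 gastric transcription factors, Sox2 and Foxa1 rose in all 3 lines. Sox2 rose by 1.34 ± 0.33, 1.03 ± 0.32 and 1.22 ± 0.32 log2 units (edgeR adjusted p = 0.0145, 0.0493 and 0.0137) and the forkhead factor Foxa1 by 0.56 ± 0.15, 0.54 ± 0.15 and 0.63 ± 0.15 (0.0193, 0.027 and 0.00675). Foxa2 fell in GIF/ATP4B-DTR by 0.53 ± 0.14 (0.0117), and Gata4, Gata6, Foxa3, Hnf4a and Klf4 were not called in any line. Scaled by total counts the Foxa2 call was lost, with 3 genes of the list called higher and 0 lower in GIF/ATP4B-DTR.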

How the data were processed

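Per the labels, RNA of 11 gastric corpus mucosa samples was purified on columns and converted into strand-specific mRNA libraries. The authors deposited expected counts per gene (30.7% of nonzero values fractional); the genome build is mm10 per the submitters' processing notes, and the aligner, quantifier and annotation are not given in the sources used here. Counts were rounded and tested with edgeR 4.0.16 in R 4.3.3 (TMM, filterByExpr, robust quasi-likelihood fit to all 11 samples, 14889 genes, Benjamini-Hochberg over all genes, threshold 0.05; common biological coefficient of variation 26.6%). SE is the log2 fold change divided by the square root of F. Samples total 20.7 to 27.9 M counts; intervals and the floor of 3 counts cover counting error only. Symbols matched 99.2% of identifiers; lengths came from GENCODE M21. Ratios had 1 count added to each gene; correlations used log2 CPM with a prior count of 2.

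The members and lists were chosen with earlier results of these data known. The text names the 6 members, for each member the 3 genes most correlated with it (members left out), and examples from each list (up to 4 by size of change in GIF/ATP4B-DTR at a mean of at least 8 CPM, some of the other genes called in a line, and genes not called or at 0 counts, to account for the list). When tested on simulated data in which 200 genes changed 4-fold, edgeR recovered 68%, 72.5% and 76% (ATP4B-DTR, then GIF-DTR, then GIF/ATP4B-DTR against control, over 14678, 14645 and 14689 genes), with 2.16%, 5.84% and 6.17% of calls false. The changed genes were few and went up and down in equal numbers. In the data 21.6%, 16.8% and 33.6% of genes were called, so these rates do not measure the performance here. Alternatives were DESeq2 1.42.0 (size factors; Wald test), other scalings and filters, no robust moderation, a Y-linked covariate, only the groups compared, no count added to ratios, and leaving out each sample in turn. A lone control was then assumed to vary like the other groups.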

Additional observations from a re-analysis of the deposited data

How the results depend on the processing

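Tff3 rests on 4 to 33 counts a sample. No paired analysis was possible because replicate numbers come from the labels for the controls alone. Scaling by total counts raised the median over all genes to 0.30, 0.35 and 0.28 log2 units for ATP4B-DTR, then GIF-DTR, then GIF/ATP4B-DTR, and gave 3828 higher and 589 lower calls (in place of 1813 and 1398), 3862 and 301 (1485 and 1015), and 4622 and 1144 (2713 and 2292); for the pooled lines it gave 4709 and 901 (2476 and 2251). Interaction calls became 29 higher and 974 lower (19 and 78), and 13 and 44 with DESeq2 size factors. Under total counts, differences of uncalled members changed sign to 0.057 (Tff1) and 0.32 (Tff2) in ATP4B-DTR, 0.36 (Tff1) and 0.20 (Gkn2) in GIF-DTR, and 0.11 (Tff3) and 0.0081 (Gkn1) in GIF/ATP4B-DTR, none of which passed. Adding the Y-linked covariate, Tff2 in GIF-DTR was −0.35, Gkn1 −1.20, Gkn2 −0.88 and Tff1 −0.72 (not called), the Gkn3 interaction was −3.33, Gkn3 in GIF/ATP4B-DTR against GIF-DTR was −0.079, and the pooled lines had 0 members called. That covariate rested mainly on ATP4B-DTR replicate 1, since no other group held samples both with and without Y-linked expression. It cannot separate Y-linked expression from genotype in GIF-DTR. Of 297 alternative values for the 5 genes other than Gkn3, 271 kept direction and side of the threshold, 25 changed sign and 1 came to pass it (Gkn1 in ATP4B-DTR); of 177 for Gkn3, 150 kept both, 15 lost and 10 gained the call and 2 changed sign. The cause was not tested.

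With no filter on low counts Gkn3 in ATP4B-DTR was 2.97 (edgeR adjusted p = 0.0541), and 0 members were called there or in the pooled lines. In the test of any difference among genotypes 1 member, Gkn3, was called with DESeq2 size factors (edgeR adjusted p = 0.0473), total counts (0.0391), TMM without the 50 most abundant genes (0.0486), at least 10 counts in every sample (0.0351) and no robust moderation (0.021). In GIF-DTR against ATP4B-DTR 1 was called with only those groups fitted or only samples without Y-linked expression.

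Leaving out each sample in turn, Gkn3 ranged from 2.43 to 3.85 in ATP4B-DTR, 0.75 (without control replicate 1) to 2.16 (without control replicate 2) in GIF-DTR samples, and 0.68 to 2.57 in GIF/ATP4B-DTR, where it was 1.15 without control replicate 1 and 2.57 without control replicate 2. Between lines it ranged from −1.85 to −1.50 for GIF-DTR against ATP4B-DTR, −0.62 to 0.79 for GIF/ATP4B-DTR against GIF-DTR and −2.30 (without GIF/ATP4B-DTR replicate 1) to −0.89 for GIF/ATP4B-DTR against ATP4B-DTR. The interaction ranged from −3.60 (without GIF/ATP4B-DTR replicate 1) to −2.03, and was −3.44 without control replicate 2. Ranges that crossed 0 were, in ATP4B-DTR, Tff1 (−0.55 to 0.13), Tff2 (−0.43 to 0.34) and Tff3 (−0.35 to 0.60); in GIF-DTR, Tff1 (−0.31 to 0.37) and Gkn2 (−0.44 to 0.19); and in GIF/ATP4B-DTR, Tff1 (−0.17 to 0.51), Tff2 (−0.10 to 0.56), Tff3 (−1.34 to 0.23), Gkn1 (−0.61 to 0.028) and Gkn2 (−0.22 to 0.41). The number of members called ranged from 0 to 2 in ATP4B-DTR and 0 to 1 in GIF/ATP4B-DTR, the pooled lines and the test of any difference. Exact permutation adjusted p ranged from 0.00524 to 0.151 for Tff1/Muc5ac, 0.0129 to 0.246 for Gkn2/Gkn1 and 0.0176 to 0.151 for Gkn3/Gkn1. With shares of counts, r of Gkn1 and Gkn3 was −0.67 and no longer passed.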

Other observations

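Genes whose level across the 11 samples was most like that of each member were ranked by Pearson's r of log2 CPM among 9187 genes. These r values are descriptions, chosen as the highest of many, over samples that share 4 genotypes. The pit cell products shared a neighbour: Plekhf2, which encodes an endosomal protein, had r = 0.942 with Tff1, 0.918 with Gkn1 and 0.909 with Gkn2, at means of 27.7 ± 3.68 CPM in control (SD, n = 2) and 24.4 ± 4.59, 25.9 ± 0.417 and 28.1 ± 1.78 for ATP4B-DTR, then GIF-DTR, then GIF/ATP4B-DTR (n = 3 each). The others were Cdk11b (0.925) and Pllp (0.910) for Tff1, Rybp (0.944) and Skil (0.920) for Gkn1, and Olfr1256 (0.913) and Spryd7 (0.909) for Gkn2. Olfr1256 had fractional counts in all 11 samples, and whether it shares reads with another gene was not tested.

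For Tff2 the closest genes were Gbp2 (r = 0.896), an interferon-inducible GTPase gene, C2cd4a (0.846) and Zfpm1 (0.846). Those of Tff3 were Celsr2 (0.827), Cdip1 (0.819, fractional in 11 samples) and Ephx1 (0.793), against a member with at most 33 counts. Gkn3 was most like Nipsnap1 (0.891), Gstm6 (0.885) and Frat2 (0.884). Frat2, a positive regulator of Wnt signalling, had 17.9 ± 5.49 CPM in ATP4B-DTR, 11.7 ± 7.77 in GIF/ATP4B-DTR and 8.04 ± 2.03 in GIF-DTR (n = 3 each), and 3.23 ± 0.13 in control (n = 2).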
